A study of Rattus norvegicus with 6 samples.

Results

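The 9 genes described here are markers of the proepicardium, the epicardium and the mesenchyme: Tbx18, Wt1, Tcf21, Upk3b, Twist1, Pdgfra, Pdgfrb, Ddr2 and Postn. They were chosen by gene name, as every probe other than a control whose array annotation carries that name, which gave 13 of the 30367 probes, for 9 of 19297 gene names on the array. Ddr2 was chosen by its fall in this same contrast, so its values are a description and no test of it is given. The other genes were picked as markers, also with earlier results of these data known, so their p-values do not come from a blind choice. RNA was measured in heart primordia of Wistar rat embryos (the labels write Wister) on embryonic day 10, with 3 samples of the pre-heartbeat group, in which the center of the primordium was flat, and 3 of the post-heartbeat group, in which it was raised. The series describes the 3 samples of a group as biological replicates, the sources used here do not give the number of primordia in each, and the labels name no allele and no agent in either group. The comparison asks which transcripts differ in the primordium between the time before and the time after it starts to beat.

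The proepicardium is a cluster of mesothelial cells that forms at the venous pole of the heart tube, next to the septum transversum, and spreads over the myocardium as the epicardium. Epicardial cells later undergo an epithelial-mesenchymal transition and give rise to cardiac fibroblasts, pericytes and smooth muscle cells of the coronary vessels. Tbx18, Wt1 and Tcf21 are transcription factors used to follow this lineage, Upk3b is a membrane protein of mesothelium, Twist1 is a regulator of mesenchymal state, Pdgfra and Pdgfrb are receptors of platelet-derived growth factors, Ddr2 is a collagen receptor of fibroblasts and Postn is a secreted matrix protein.

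Each sample was on 1 array. Values are log2 of the deposited spot intensity after subtraction of the log2 75th percentile of the same array, so 0 is the level of that percentile, and they are not compared here between probes. Feature Extraction, the scanner software, marks spots that are well above background. A probe entered the fit if it was so marked on every array of the pre-heartbeat or of the post-heartbeat group, and 19299 probes, or 63.6%, did. Between 39375 and 41327 of 58717 spots were well above background on an array, and 0 were saturated. The arrays were on 2 slides, slide 1 holding the first pre-heartbeat replicate with the first and second of the post-heartbeat group, and slide 2 the others. Given the group, 16.3% of the tested probes differed between the slides at a limma adjusted p under 0.05, so each group difference was also fitted with the slide as a block and taken within each slide. In bulk tissue, fewer cells of a type and less RNA per cell cannot be told apart.

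Of the 13 probes, 3 were well above background on all 6 arrays, those of Tcf21, Pdgfra and Twist1, and 4 were on no array. In all, 8 probes of 7 genes entered the fit, 2 of them for Ddr2, for which no test is given. Of the other 6 genes, 0 passed a limma adjusted p under 0.05, with or without the slide as a block. At an unadjusted limma p under 0.05, Tbx18 was higher in both fits and Tcf21 was lower in the fit with the block. Of the 19299 tested probes, 1352 had such a p without the block and 1864 with it, higher and lower together. At the adjusted threshold, 0.119% of all tested probes were higher after heartbeat initiation and 0.0207% were lower, and with the slide as a block these shares were 1.16% and 0.461%. The groups did not overlap for Tbx18, which was higher in the post-heartbeat group, as in 5.38% of all tested probes. They also did not overlap for Pdgfra and Postn, which were lower in that group, as in 6.14% of all tested probes. Tbx18 and Pdgfrb entered the fit through the post-heartbeat arrays alone and Postn through the pre-heartbeat arrays alone. This was the group in which each had the higher mean. For these genes the unadjusted p, any separation of the groups, and the interval and permutation p given below are therefore descriptions.

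**Figure D1:**
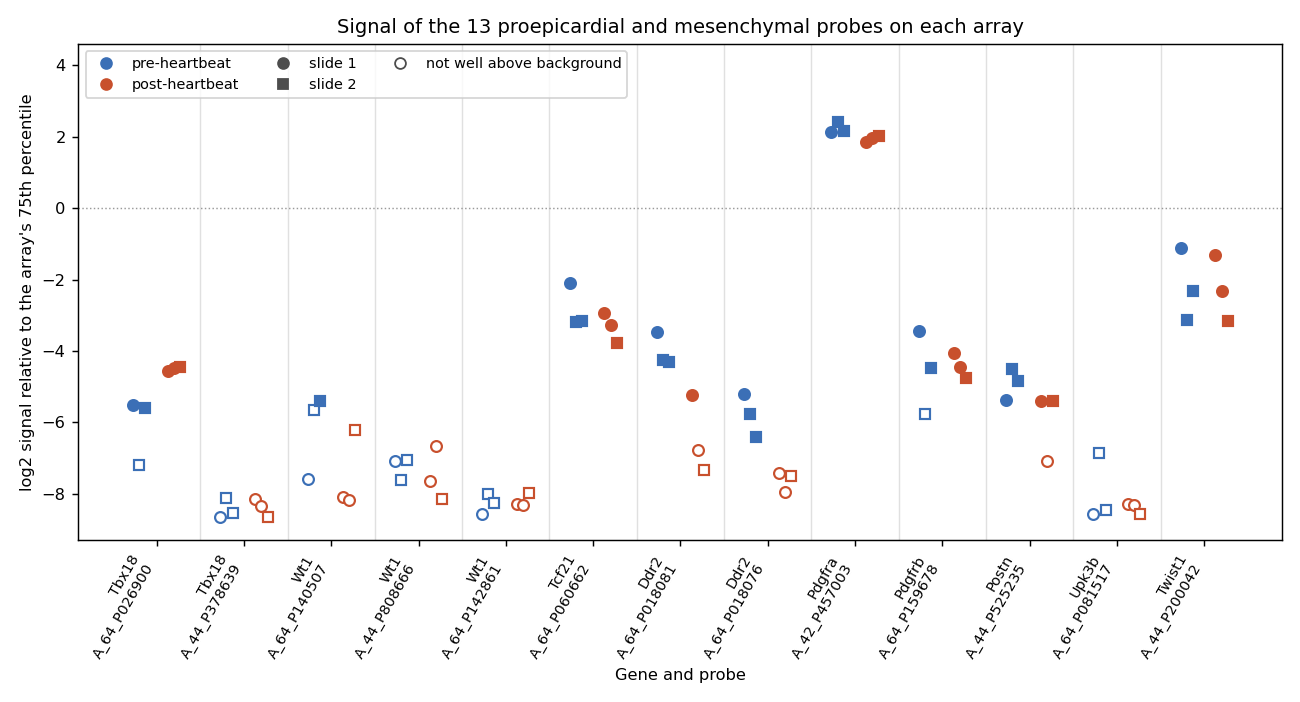
Signal of the 13 probes on each of the 6 arrays, as log2 relative to the array's 75th percentile (y axis), by gene and probe (x axis). Each point is 1 array, colored by group, with circles for slide 1 and squares for slide 2, and open points were not well above background. Tbx18 A_64_P026900 lay between -4.54 and -4.44 on the post-heartbeat arrays, above all pre-heartbeat arrays, and both probes of Ddr2 were lower on every post-heartbeat array.

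Tbx18, a T-box factor of the proepicardium and of the sinus venosus, had 2 probes, both on the minus strand of chromosome 8 in the rn4 genome. They are printed because 1 was well above background on most arrays and the other on none, and because they differ in base composition. The first lies at chr8:92986690-92986749 and reads as an open frame that closes on a stop codon, in capitals. The second lies at chr8:92984349-92984408, and its first 30 bases are given.
Tbx18 A_64_P026900: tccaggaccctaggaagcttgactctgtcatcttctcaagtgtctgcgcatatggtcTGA
Tbx18 A_44_P378639: taattataattatctatctgtattttatta
G and C made up 50% of the 60 bases of the first probe and 15% of the second, where the median of all probes was 45% and 0.0263% of the probes had as little G and C as the second.

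The signal of Tbx18 A_64_P026900 was -5.50, -7.18 and -5.61 on pre-heartbeat replicates 1, 2 and 3, and -4.54, -4.49 and -4.44 on the post-heartbeat replicates. All 3 post-heartbeat arrays were higher than all pre-heartbeat arrays and close to each other, and pre-heartbeat replicate 2, the lowest, was not well above background. The pre-heartbeat mean was -6.10 ± 0.94 and the post-heartbeat mean -4.49 ± 0.051 (SD, n = 3 each). The log2 difference of 1.61 (SE 0.43, 95% interval 0.59 to 2.62) corresponds to a 3.04-fold higher signal, the largest positive difference among the 8 probes fitted. It did not pass the test over all probes (limma adjusted p = 0.314, range over the alternatives 0.0818 to 0.861, two-sided exact permutation p = 0.1, the smallest that 3 arrays per group allow). Because the probe entered the fit through the post-heartbeat arrays alone, the interval and the permutation p are descriptions. With the slide as a block the difference was 1.47 (limma adjusted p = 0.169), and it was 0.98 on slide 1 and 1.95 on slide 2. Its size rested on pre-heartbeat replicate 2, as it was 1.06 without that array. It was 0.44 with normexp background correction, which here adds an offset of 50 to every corrected intensity. Such an offset by itself shrinks the differences of dim probes, so the 0.44 does not separate background from offset. The second probe, A_44_P378639, was between -8.64 and -8.11 and was not well above background on any array.

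Wt1, a zinc finger factor of mesothelium and epicardium, had 3 probes on the plus strand of chromosome 3, and none was tested. The probe at chr3:90575952-90576011, which also closes on a stop codon in its open frame, is printed because it alone of the 3 was well above background on an array.
Wt1 A_64_P140507: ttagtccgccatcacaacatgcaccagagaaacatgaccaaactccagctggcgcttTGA
Its values were -7.57, -5.65 and -5.41 in the 3 pre-heartbeat samples and -8.09, -8.16 and -6.20 in the 3 post-heartbeat samples. Pre-heartbeat replicate 3, the highest, was the one array on which it was well above background. The groups overlapped, and no fold is given because the other values were at background. The other probes, A_44_P808666 and A_64_P142861, were well above background on no array, with values between -8.13 and -6.65 and between -8.55 and -7.97.

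Tcf21, a basic helix-loop-helix factor of epicardial cells and cardiac fibroblast progenitors, was well above background on all 6 arrays with its single probe, at chr1:23213796-23213855 on the plus strand. Its signal was -2.09, -3.18 and -3.15 in the 3 pre-heartbeat samples and -2.94, -3.28 and -3.77 in the 3 post-heartbeat samples. The groups overlapped, because post-heartbeat replicate 1 lay above pre-heartbeat replicates 2 and 3. The means of -2.81 ± 0.62 and -3.33 ± 0.42 (SD, n = 3 each) differed by -0.52 (SE 0.35, 95% interval -1.35 to 0.30, limma adjusted p = 0.866, exact permutation p = 0.4). The probe differed between the slides. Given the group, the log2 difference of slide 2 from slide 1 was -0.87 (limma adjusted p = 0.0125), and within the slides every post-heartbeat array was below every pre-heartbeat array, by -1.02 on slide 1 and -0.61 on slide 2. With the slide as a block the difference was -0.81 (SE 0.16, limma adjusted p = 0.0599), and without pre-heartbeat replicate 1, the only pre-heartbeat array of slide 1, it was -0.16.

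Upk3b, measured by a probe at chr12:21746939-21746998, was well above background on 0 of 6 arrays. Its values ran from -8.56 to -6.85 in the pre-heartbeat group and from -8.55 to -8.28 in the post-heartbeat group. These are values at background, and they give no level of the transcript in either group.

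The gene lists, here and below, were chosen with earlier results of these data known, so their counts and medians are descriptions. A list of 22 genes of the proepicardium and epicardium, which includes Tbx18, Wt1, Tcf21 and Upk3b, had 15 genes tested. Their median log2 difference was 0.41, where the median over all tested probes was -0.033, and 11 of the 15 were higher in sign. None passed a limma adjusted p under 0.05, and at an unadjusted p under 0.05 there were 5 higher and 1 lower. That unadjusted threshold was passed by 1352 of the 19299 tested probes, higher and lower together. With the slide as a block 1 gene was higher at the adjusted threshold, as were 1.16% of all tested probes. This was Scx, a factor of tendon and of a subset of proepicardial cells, with a log2 difference of 0.74 in that fit (limma adjusted p = 0.0470) and 1.03 without the block (limma adjusted p = 0.472). Scx was -4.00, -5.02 and -4.81 in the 3 pre-heartbeat samples and -3.26, -3.38 and -4.11 in the 3 post-heartbeat samples. Its groups overlapped, as post-heartbeat replicate 3 was below pre-heartbeat replicate 1, which was on the other slide. Clic5, an intracellular channel protein found in mesothelium, had a difference of 0.63 and Tbx5, a T-box factor of heart and septum transversum, one of 0.45, with groups that did not overlap and limma adjusted p of 0.496 and 0.633. Aldh1a1, an enzyme of retinoic acid synthesis, had a difference of -0.45 with groups that did not overlap (limma adjusted p = 0.651). Upk3b, Sema3d and Muc16 were well above background on no array. The summed level of the list, in units of the 75th percentile, ran from 6.76 to 7.71 before and from 7.52 to 9.22 after heartbeat initiation. Such sums, here and below, add signals on the linear scale, so the brightest probes of a list weigh most. Here Krt19, with log2 signals from 1.80 to 2.24, weighed most, and dim probes such as that of Tbx18 added little. Of 17 genes of the septum transversum and lateral plate mesoderm, 14 were tested, their median difference was 0.088 and 0 passed the adjusted threshold in either fit (1 gene at an unadjusted limma p under 0.05).

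Twist1, a basic helix-loop-helix factor of mesoderm and mesenchyme, was measured by a probe at chr6:52607474-52607533 on the plus strand and was well above background on every array. Its signal was -1.10, -3.14 and -2.31 in the 3 pre-heartbeat samples and -1.31, -2.31 and -3.16 in the 3 post-heartbeat samples. Both groups spanned nearly the same range, and the arrays differed by slide: given the group, the signal on slide 2 was lower (log2 difference -1.48, limma adjusted p = 0.0188). The means were -2.18 ± 1.03 and -2.26 ± 0.92 (SD, n = 3 each), a log2 difference of -0.077 (SE 0.61, limma adjusted p = 0.975, exact permutation p = 0.7). The slide block moved it to -0.57 (SE 0.31, limma adjusted p = 0.695), with -0.71 on slide 1 and -0.43 on slide 2. The sign turned when pre-heartbeat replicate 1 (0.46) or post-heartbeat replicate 3 (0.37) was left out.

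Of 23 genes of mesenchyme and of regulators of epithelial-mesenchymal transition, Twist1 among them, 19 were tested, with 5 higher in sign and a median log2 difference of -0.21. None passed a limma adjusted p under 0.05, and at an unadjusted p under 0.05 there were 0 higher and 6 lower. Of the 19299 tested probes, 1352 passed that unadjusted threshold, higher and lower together. The slide block left 0 higher and 2 lower at the adjusted threshold, against 1.16% and 0.461% of all tested probes. These were Snai2, a zinc finger repressor of epithelial genes that promotes the transition, and Cdh11, a cadherin of mesenchymal cells. Snai2 was -3.33, -3.24 and -2.87 in the 3 pre-heartbeat samples and -4.88, -4.63 and -4.06 in the 3 post-heartbeat samples. Cdh11 was -3.97, -4.69 and -4.33 before and -4.80, -5.31 and -5.72 after heartbeat initiation. For both genes every post-heartbeat array was below every pre-heartbeat array. The difference of Snai2 was -1.37 (limma adjusted p = 0.116), and -1.21 with the slide as a block (limma adjusted p = 0.0216). That of Cdh11 was -0.94 (limma adjusted p = 0.389), and -1.15 with the block (limma adjusted p = 0.0290). This list too was chosen with earlier results known, so the next counts are a description and no test. The groups did not overlap, with the post-heartbeat group below, for 8 of the 19 genes, against 6.14% of all tested probes, and for 0 with that group above. Besides Snai2 and Cdh11, they were Prrx1, a homeobox factor of limb and lateral mesoderm (-1.67, limma adjusted p = 0.266), Zeb2, a repressor of Cdh1 (-0.94, 0.356), Cdh1, the epithelial cadherin (-0.47, 0.372), Msx2 (-0.40), Tgfbr2 (-0.37) and Tgfb2 (-0.21). Cdh1 marks epithelium and not mesenchyme, and Snai1, the close relative of Snai2, had a difference of 0.042 (limma adjusted p = 0.984). Sox9 and Tgfb3 were well above background on no array. The summed level of the list overlapped between the groups, with 19.6 to 22.6 before and 18.3 to 22.0 after heartbeat initiation.

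Lists of markers of other cell types also differed between the groups, and their part in these values was not tested. Of 10 genes of neural ectoderm 4 were tested, and 3 of these were lower with the slide as a block (Otx2, Hesx1 and Lmx1a). Without the block 1 was lower, Otx2. Six3 and Zic1 were above background on no array, and the summed level of that list was between 6.82 and 7.81 before and between 2.57 and 3.08 after heartbeat initiation. The summed level of 12 endothelial genes was between 20.3 and 20.8 before and between 14.8 and 16.2 after, with 0 genes called. That of the yolk sac endoderm list was between 50.7 and 53.8 before and between 32.1 and 43.0 after, also with 0 called. Of 18 cardiomyocyte genes, all of them tested, 4 were higher without the block (Myl2, Pln, Nppa and Tnni3) and 9 with it, the further ones being Myh6, Myh7, Actn2, Myl3 and Myl4. Their summed level was 413 to 698 before and 772 to 918 after. With the slide as a block, Dll3 was higher among 6 tested genes of paraxial mesoderm and Cer1 was lower among 8 of definitive endoderm. In that fit 1.16% of all tested probes were higher and 0.461% were lower, and without the block 0.119% were higher and 0.0207% were lower. Lists of neural crest, second heart field, surface ectoderm and erythroid genes had 0 calls in either fit.

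**Figure D2:**
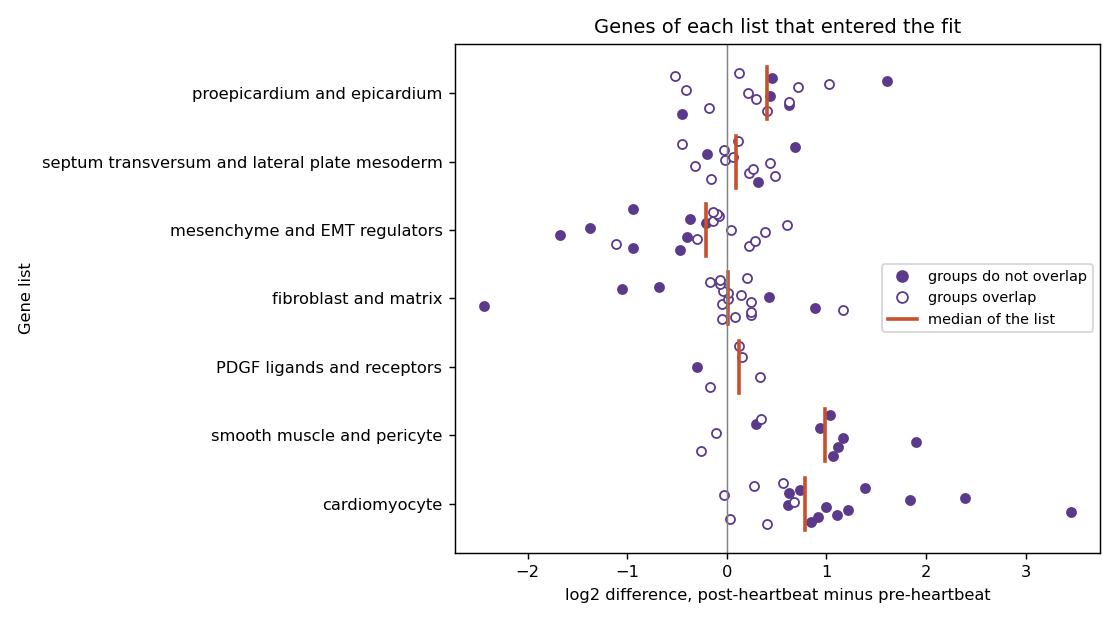
Log2 difference, post-heartbeat minus pre-heartbeat (x axis), of the genes of 7 lists that entered the fit (y axis). Each point is 1 gene, filled where the groups do not overlap, and the bar is the median of the list. The medians were 0.41 for proepicardium and epicardium, -0.21 for mesenchyme and 0.99 for smooth muscle and pericyte, and the leftmost point is Ddr2, which was chosen by its fall.

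Pdgfra, a receptor of mesodermal mesenchyme, was measured on 10 spots of 1 probe at chr14:35369708-35369767 on the minus strand. Its signal was 2.14, 2.42 and 2.18 in the 3 pre-heartbeat samples and 1.85, 1.96 and 2.03 in the 3 post-heartbeat samples. Every post-heartbeat array was below every pre-heartbeat array, and the 6 values lay close together. The means of 2.24 ± 0.16 and 1.95 ± 0.090 (SD, n = 3 each) differed by -0.30 (SE 0.15, 95% interval -0.64 to 0.048), a 1.23-fold lower signal that did not pass the test (limma adjusted p = 0.830, exact permutation p = 0.1). The difference was -0.25 with the slide as a block (limma adjusted p = 0.717), -0.23 on slide 1 and -0.27 on slide 2, and it ranged from -0.35 to -0.21 over all alternatives.

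Pdgfrb, the receptor of pericytes and vascular smooth muscle, was measured by a probe at chr18:57053387-57053446 on the plus strand. The signal was -3.45, -5.76 and -4.47 in the 3 pre-heartbeat samples and -4.04, -4.43 and -4.75 in the 3 post-heartbeat samples. The post-heartbeat values lay within the range of the pre-heartbeat values, whose lowest, replicate 2, was not well above background. The difference of 0.15 (SE 0.54, 95% interval -1.13 to 1.43, limma adjusted p = 0.944, exact permutation p = 0.8) had no settled sign, as the slide block turned it to -0.21, with -0.79 on slide 1 and 0.36 on slide 2. It was also negative without pre-heartbeat replicate 2 (-0.45).

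No ligand of these receptors passed the test. Pdgfa, the main ligand of Pdgfra, was between 1.22 and 1.75 before and between 1.11 and 1.57 after heartbeat initiation, a difference of -0.17 (SE 0.20, limma adjusted p = 0.866). Pdgfc, which also binds Pdgfra, had a difference of 0.34 (SE 0.31, limma adjusted p = 0.866), with groups that overlapped. Pdgfb, which binds both receptors, was well above background on no array, and Pdgfd, a ligand of Pdgfrb, on 1 of 6. Of the 7 genes of the PDGF list 5 were tested, with a median difference of 0.12, and 0 passed in either fit, also at an unadjusted limma p under 0.05. The summed level of the list was between 7.31 and 7.95 before and between 6.32 and 6.77 after heartbeat initiation. It was made up mostly of Pdgfra and Pdgfa, the brightest of the 5 tested genes.

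A list of 10 genes of smooth muscle and pericytes, cell types that Pdgfrb also marks, was tested in full and had a median difference of 0.99. None passed without the block (6 were higher at an unadjusted limma p under 0.05), and 6 were higher with the slide as a block: Acta2, Tagln, Cnn1, Myh11, Cspg4 and Des. Most of these contractile and cytoskeletal genes are also transcribed in the early myocardium. Of all 19299 tested probes, 1.16% were higher at the adjusted threshold with the block. Without the block, 1352 had an unadjusted limma p under 0.05, higher and lower together. Cspg4, a proteoglycan of pericytes, had the largest difference, 1.90 (limma adjusted p = 0.0987), and 1.80 with the block (limma adjusted p = 0.0280). The summed level of the list was between 7.90 and 8.15 before and between 12.1 and 15.5 after heartbeat initiation.

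**Figure D3:**
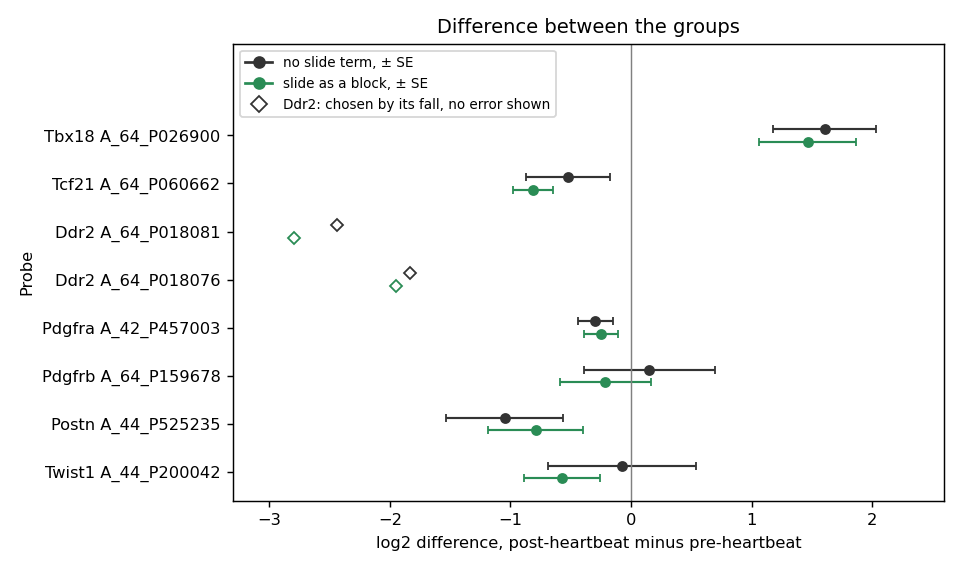
Log2 difference, post-heartbeat minus pre-heartbeat (x axis), of the 8 probes that entered the fit (y axis), without a slide term (black) and with the slide as a block (green). Bars are the SE of the limma fit, and Ddr2, chosen by its fall, is drawn as open diamonds without an error. Tbx18 was at 1.61 and 1.47, Tcf21 at -0.52 and -0.81, and Pdgfrb changed sign, from 0.15 to -0.21.

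Ddr2, a tyrosine kinase receptor for fibrillar collagen, had 2 probes on the minus strand of chromosome 13, which are printed because both were lower on every post-heartbeat array. The first lies at chr13:85801455-85801514, and its first 30 bases are given. The second lies at chr13:85802377-85802436, and its 60 bases hold an open frame.
Ddr2 A_64_P018081: gtcttcatctgtgtgttttagtgacaactt
Ddr2 A_64_P018076: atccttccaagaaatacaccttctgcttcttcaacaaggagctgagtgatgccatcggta
The signal of A_64_P018081 was -3.47, -4.26 and -4.31 in the 3 pre-heartbeat samples and -5.24, -6.77 and -7.33 in the 3 post-heartbeat samples. Before heartbeat initiation it was well above background on every array, and afterwards only on replicate 1, the highest of its group. The means were -4.01 ± 0.47 and -6.45 ± 1.08 (SD, n = 3 each), a log2 difference of -2.43, whose size is not firm because 2 of the 3 post-heartbeat values were at background. Within the slides the differences were -2.54 on slide 1 and -3.05 on slide 2.

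The second probe, A_64_P018076, was -5.19, -5.76 and -6.40 before and -7.42, -7.95 and -7.49 after heartbeat initiation. All 3 pre-heartbeat arrays and 0 post-heartbeat arrays were well above background, so the size of the difference is not known. With the post-heartbeat values raised to the dimmest spot marked well above background on each array, the signal was 1.29-fold lower. This is no strict bound, because a probe can lie above that dimmest spot and still be unmarked. Wt1 A_64_P140507 did so on pre-heartbeat replicate 2, with -5.65 against -5.81. The measured difference was -1.84, with -2.49 on slide 1 and -1.41 on slide 2. Both probes lie close to background. With normexp background correction the difference was -0.95 for A_64_P018081 and -0.43 for A_64_P018076, but its offset of 50 by itself shrinks the differences of dim probes. Over the other alternatives the first probe ranged from -3.04 to -1.99. Ddr1, the related receptor, was well above background on no array, with values between -7.92 and -6.14.

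None of the fibrillar collagen genes in the list of fibroblast and matrix genes passed the threshold. Col1a1 had a difference of 0.080 (limma adjusted p = 0.903), Col1a2 of 0.24 (0.866), Col3a1 of 0.24 (0.870) and Col5a1 of 1.17 (0.657), and the groups overlapped for each. Postn, a matricellular protein of valves and fibroblasts, was measured by a probe whose 60 bases align across 1037 bases on the plus strand of the rn4 genome, chr2:143560792-143561828, so that the alignment has a gap, as over an exon junction. It is printed for that reason.
Postn A_44_P525235: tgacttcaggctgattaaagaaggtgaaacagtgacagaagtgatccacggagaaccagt
Its signal was -5.38, -4.49 and -4.83 in the 3 pre-heartbeat samples and -5.39, -7.07 and -5.39 in the 3 post-heartbeat samples. The groups were barely separated, since pre-heartbeat replicate 1 was almost level with post-heartbeat replicates 1 and 3, and post-heartbeat replicate 2 was not well above background. The means of -4.90 ± 0.44 and -5.95 ± 0.97 (SD, n = 3 each) differed by -1.05 (SE 0.48, 95% interval -2.19 to 0.091), a 2.07-fold lower signal that did not pass the test (limma adjusted p = 0.787, exact permutation p = 0.1). The difference was -0.79 with the slide as a block (limma adjusted p = 0.626) and -0.49 without post-heartbeat replicate 2. It was -0.36 with normexp background correction, whose offset of 50 by itself shrinks the differences of dim probes.

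Of 27 genes of fibroblasts and matrix, 20 entered the fit, Ddr2 and Postn among them. Their median difference was 0.013 and 11 were higher in sign. Leaving out Ddr2, for which no test is given, 0 of 19 passed the adjusted threshold in either fit, and 2 were higher and 1 was lower at an unadjusted limma p under 0.05. Without the block, 1352 of all 19299 tested probes passed that unadjusted threshold, higher and lower together. Besides Ddr2, whose choice fixes its side, the post-heartbeat group lay wholly below for Postn and for S100a4, a calcium-binding protein of motile cells (-0.68, limma adjusted p = 0.376), as in 6.14% of all tested probes. It lay wholly above for Col6a1, a chain of collagen VI (0.88, limma adjusted p = 0.535), and for Fbn2, a fibrillin of the embryonic matrix (0.42, limma adjusted p = 0.808), as in 5.38% of all tested probes. Col6a1 entered the fit through the post-heartbeat arrays alone, the group in which it was higher. Its separation and its unadjusted p are therefore descriptions. The summed level of the list ran from 69.5 to 75.9 before and from 77.2 to 82.1 after heartbeat initiation. Lox, Thy1 and Fap, markers of mature fibroblasts, were well above background on no array, like Ddr1.

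For the 3 members above background on every array, the genes with the nearest pattern over the 6 arrays were sought among 12050 genes, by the root-mean-square difference of log2 signals after each gene's own mean was subtracted. Tcf21 was nearest to Pcsk5, a proprotein convertase, at 0.092 log2 units and to Mro at 0.117. Pdgfra, which varied little, was nearest to Odf2 at 0.019 and to Plek2 at 0.022. Twist1 was nearest to Rarg, a retinoic acid receptor, at 0.168 and to Nrtn, a neurotrophic ligand, at 0.183. The patterns of Tcf21 and Twist1 followed the slide as well as the sample, and with 6 arrays such likeness is a description.

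**Figure D4:**
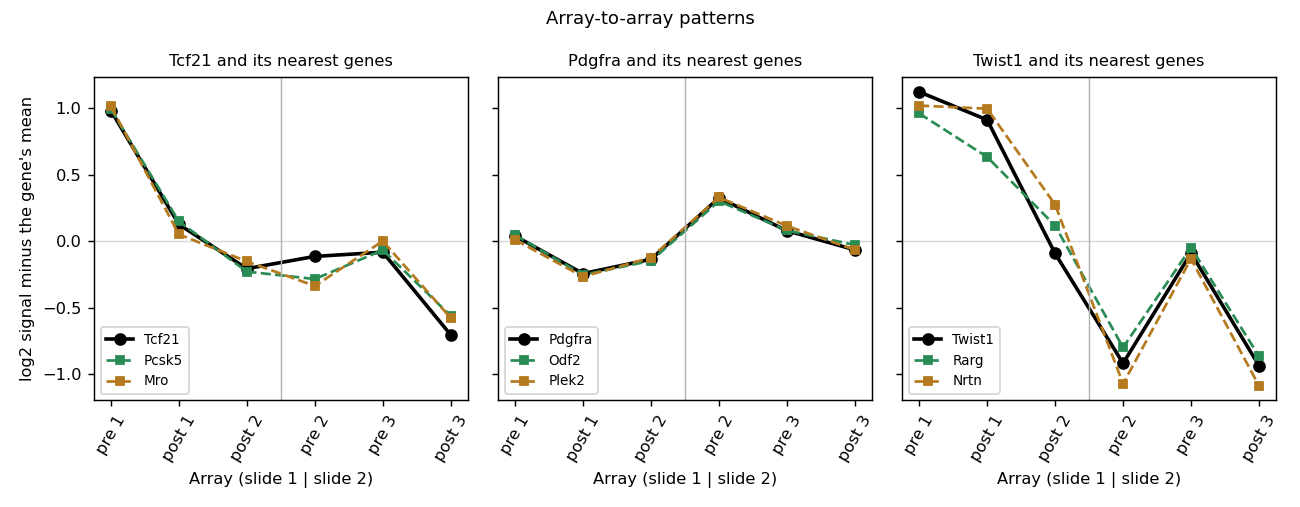
Log2 signal minus the gene's own mean (y axis) of Tcf21, Pdgfra and Twist1 (black) and of the 2 genes nearest to each (colored), on the 6 arrays (x axis) with slide 1 left of the vertical line and slide 2 right of it. Twist1 and its neighbours were highest on pre-heartbeat replicate 1 and post-heartbeat replicate 1, both on slide 1.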

How the data were processed

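Expression was measured in 3 pre-heartbeat and 3 post-heartbeat samples, each on 1 array. The authors labeled cRNA with cyanine-3 from a small amount of total RNA, hybridized it to 1-color Agilent rat arrays and quantified the scans with Feature Extraction 10.7.3.1, per the labels. The deposited values used here are the processed signals, spot intensities from which the background had been subtracted. The authors also deposited ratios on a linear scale, made in GeneSpring with a 75th percentile shift and division of each probe by a baseline, which the methods give as its median over all samples. The median of these ratios was between 0.934 and 1.10 on the 6 arrays, and these ratios served as an alternative. The median log2 ratio of a probe over these 6 arrays was within 0.01 of 0 for 3.81% of the probes, so which samples the baseline covers stays unknown, and it cancels between the groups.

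Control spots and spots marked as outliers were left out. The log2 of the deposited intensity less the log2 75th percentile of the array was averaged over the spots of a probe, and a probe was above background on an array if at least 0.5 of its spots were. Groups were compared with limma 3.58.1 in R 4.3.3 with version 1.17.8 of data.table, over the 19299 probes that were above background on every array of the pre-heartbeat or of the post-heartbeat group, with Benjamini-Hochberg adjustment over all of them and a threshold of 0.05. Single probes were also compared by a two-sided exact permutation test over the arrays, whose smallest p is 0.1. Precision is limited by the number of arrays. On simulated data for 19297 probes, the same comparison recovered 38 of 100 probes changed by 1 on the log2 scale and 92 of 100 changed by 2, with 8 false calls.

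The 9 genes, their 13 probes and the 16 lists, which were written from general knowledge, were chosen with earlier results of these data known. A gene of a list was represented by its probe with the highest mean signal, taken among its tested probes where it had any. Genes named are the members, the list genes past the threshold with or without the slide as a block, and up to 4 genes of a list with the largest differences, among genes without overlap of the groups and with the 3 arrays of the higher group above background. The ligands of Pdgfra and Pdgfrb, Ddr1, and the 2 genes nearest to each member above background on all 6 arrays were also named. For the lists of other cell types, the text names genes past the threshold and, in neural ectoderm, Six3 and Zic1, which were above background on no array. Genes above background on no array were also named for the proepicardial, mesenchymal and fibroblast lists. Snai1, Msx2, Tgfbr2, Tgfb2, Cdh1, Fbn2 and the collagens Col1a1, Col1a2, Col3a1 and Col5a1 were named after their values were seen. Slides were taken from the barcode that is recorded in the files. Positions are those given with the array for rn4, and exons and introns of that build were not used here.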

Additional observations from a re-analysis of the deposited data

How the results depend on the processing

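With the slide as a block, 223 tested probes were higher and 89 were lower at a limma adjusted p under 0.05, against 23 and 4 without it. The numbers were 95 and 49 with the replicate number as a block, and 43 and 7 with normexp background correction (offset 50). They were 38 and 7 with an intensity trend, and 10 and 3 with the ratios of the authors. They were 11 and 3 with quantile normalization, 1 and 0 with no filter on dim probes, and 0 and 0 in the methods' Tukey HSD test after Benjamini-Hochberg adjustment. For pathway analysis the methods took genes raised at least 1.5-fold with a Tukey HSD p under 0.05. They state no adjustment of that p, so their threshold is unlike the one used here. With each array left out in turn, 0 to 1 were higher and 0 to 1 were lower. The cause of these shifts was not tested. In the proepicardial list, 1 gene was higher with the slide as a block, and in the mesenchymal list 2 were lower with the slide as a block and 2 with the replicate block. Same-numbered arrays correlated at 0.648, -0.277 and 0.494 in their deviations from the group means. These values cannot show whether the numbers pair the samples, because the arrays numbered 1 and those numbered 3 share a slide and those numbered 2 do not. Of the 6 tested members other than Ddr2, Tbx18, Tcf21, Pdgfra and Postn kept their sign under every alternative. The difference of Pdgfrb turned to -0.21 with the slide as a block and to -0.065 with normexp, and ranged from -0.45 to 0.71 with each array left out, while that of Twist1 then ranged from -0.55 to 0.46. None of these 6 passed the adjusted threshold under any alternative, the lowest being 0.0599 for Tcf21 with the slide as a block. For probes close to background, those of Ddr2, Postn and Tbx18, the size of a difference is limited by the signal over background.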
